A study of Drosophila melanogaster with 9 samples.

Results

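Among the replication origins mapped in Drosophila Bg3 cells, a group of 560 had a counterpart in at least 1 of 3 size fractions of nascent strands from S2 cells, yet none in the S2 list made from pooled fractions. They are called fraction-only origins here. They were chosen from the 8212 origins of the Bg3 list by width (under 4000 bp), by place (arms 2L, 2R, 3L and 3R, without 2L from 21 Mb and 3L from 22.5 Mb onward) and by overlap. An origin had to overlap a region of fraction 4, 5 or 6 by at least 1 bp and no S2 pooled region. The width and place limits left 5404 Bg3 origins, so fraction-only origins made up 10.4% of those and 6.82% of the whole list. They are set against the remaining ones: 2526 found in no S2 list, 1563 found in both the S2 pooled list and a fraction, and 755 found in the S2 pooled list alone.

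A replication origin is a place where the paired strands of DNA are opened and copying starts. The origin recognition complex loads the MCM helicase at many sites before S phase, and only a part of these loaded sites fires in a given cell cycle. In Drosophila, as in other animals, these sites are not set by a strict consensus sequence. Each leading strand begins with a short RNA primer, and the young strand can be purified because lambda exonuclease digests DNA that carries no such primer. Short nascent strands come from forks that have just left the origin, while longer ones have been extended farther away from it.

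Bg3 stands for ML-DmBG3-c2, cultured cells derived from larval nervous tissue, and S2 for S2-DRSC, cultured cells that came from embryos and resemble blood cells. The labels give the same growth temperature for both lines, a different medium for each, and no treatment. Bg3 and S2 nascent strands of 0.5 to 2.5 kb were each sequenced from pooled gradient fractions with 2 biological replicates, and S2 strands also from fractions 4 (short), 5 (middle-sized) and 6 (long), with 2 libraries each. Each of the 5 deposited lists is a single set of regions on build dm3, with 8212 regions for Bg3, 4505, 6448 and 5814 for fractions 4, 5 and 6, and 7268 for S2. No list has a column per replicate, so no difference below was set against a spread between cultures, and none was tested. The intervals in parentheses are exact 95% binomial intervals, or for medians the matching order-statistic intervals. They cover counting error over origins of 1 list only, and origins near each other are not independent.

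The overlaps that define fraction-only origins are description and not a result. Of the 5404 Bg3 origins within the limits, 3086 (57.1%) had no S2 pooled counterpart and 2123 (39.3%) had a counterpart in at least 1 fraction. Both conditions met in the 560. A fraction held 18.1% of the Bg3 origins that the S2 pooled list lacked (16.8 to 19.6), and 67.4% of the 2318 that it contained (65.5 to 69.3). Seen from the fractions, 26.4% of the Bg3 origins they held were missing from the S2 pooled list (24.5 to 28.3).

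Fraction-only origins were mostly held by 1 or 2 fractions, whereas origins also found in pooled S2 were most often held by all 3. Fraction 5 held 371 of the 560 (66.25%), fraction 6 held 315 (56.25%) and fraction 4 held 256 (45.7%). In origins also in the S2 pooled list these shares were higher, at 87.7%, 68.6% and 69.4%. Over all Bg3 origins within the limits they were 32.2%, 25.7% and 24.8%. That set includes origins in no fraction, which the rule leaves out of the 560. Exactly 1 fraction held 277 fraction-only origins (49.5%, 45.2 to 53.7), against 360 of the 1563 also in the S2 pooled list (23.0%, 21.0 to 25.2). All 3 fractions held 99 of them (17.7%, 14.6 to 21.1), against 761 of the origins also in the S2 pooled list (48.7%, 46.2 to 51.2). The rule used these same overlaps, so the shares describe the 2 classes and are no test of a difference.

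Among fraction-only origins the single-fraction sites were split almost evenly, with 89 in fraction 4 alone, 105 in fraction 5 alone and 83 in fraction 6 alone. Neighbouring sizes went together: 116 were shared by fractions 5 and 6 and 51 by fractions 4 and 5. Only 17 (3.04%) were shared by the short and the long fraction without the middle one. Origins also in the S2 pooled list had the same order, with 241 of 1563 (15.4%), 187 (12.0%) and 14 (0.896%). Fraction 5 also had the longest list, with 6448 regions, and its part in this order was not tested. Fraction 6 alone held 14.8% of fraction-only origins (12.0 to 18.0), against 3.58% of the origins also present in pooled S2 (2.72 to 4.63).

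**Figure D1:**
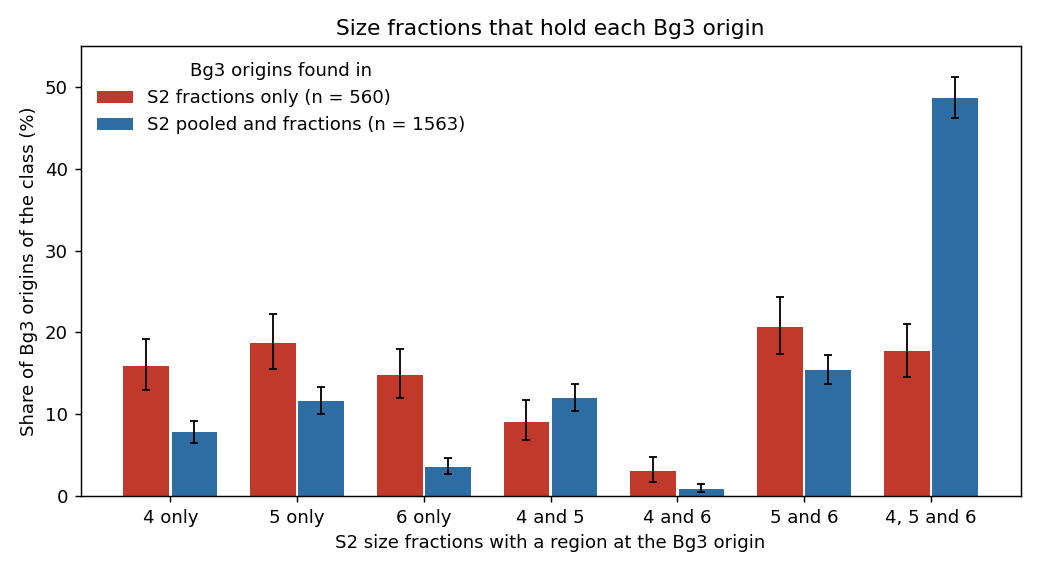
Share of Bg3 origins (y axis, percent) by the exact set of S2 size fractions that hold them (x axis), for the 560 fraction-only origins (red) and the 1563 origins also in the S2 pooled list (blue); error bars are exact 95% binomial intervals. The red bars are spread over several patterns, with 17.7% in all 3 fractions, whereas 48.7% of the origins also in the S2 pooled list were in all 3.

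The size of the nascent strands went along with the width of the Bg3 origin. Origins held by fraction 4 alone had a median width of 603 bp, those held by fraction 5 alone 419 bp and those held by fraction 6 alone 342 bp. The sites marked only by short strands were thus wider in Bg3 cells than those marked only by long strands. The same order did not hold in origins also found in pooled S2, where the medians were 531.5, 544 and 407 bp. The regions of the whole fraction lists differed in width as well, with medians of 689 bp in fraction 4, 536 bp in fraction 5 and 578 bp in fraction 6. Their part in the order was not tested. Median strength was 2037, 2235 and 2268 reads per kb in fraction-only origins of fractions 4, 5 and 6 alone. Strength is the authors' value for each origin, in reads per kb of its width, and can be compared only within the Bg3 list.

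Where a fraction region met a fraction-only origin, the closeness of the match was fixed in part by the rule. The regions had to overlap, which limits how far apart their centres can lie. The fraction region covered a median of 86.8% of the Bg3 origin in fraction 4, 84.1% in fraction 5 and 92.7% in fraction 6. The lower quartiles of this cover were 49.0%, 50.5% and 56.9%. The fraction region contained the whole origin in 93 of 256, 118 of 371 and 119 of 315 cases. Centres lay a median of 113 bp apart for fraction 4, 98 bp for fraction 5 and 91 bp for fraction 6. In origins also in the S2 pooled list these distances were 95.3, 101 and 119 bp, so the fraction regions sat about as near the Bg3 centre in either class.

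A stricter match, in which each region covers at least 50% of the other, was met less often. It held for 47.3% of fraction-only origins in fraction 4 (41.0 to 53.6), against 63.3% of the origins also in the S2 pooled list (60.3 to 66.2). The shares were 53.4% against 57.6% in fraction 5 and 53.0% against 53.4% in fraction 6. The classes differed most in fraction 4. Fraction regions at fraction-only origins were also narrower than those at origins in the S2 pooled list, with medians of 549.5 against 653.5 bp in fraction 4, 433 against 626 bp in fraction 5 and 459 against 704 bp in fraction 6.

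At the 99 origins held by all 3 fractions, the regions of short, middle-sized and long strands had centres near each other, which the rule fixes in part. All 3 regions had to overlap the same Bg3 origin, and this limits how far apart their centres can lie. In the 86 of them with a single region per fraction, the 3 fraction centres spanned a median of 96.8 bp, and their mean lay a median of 102 bp from the Bg3 centre. Region widths were 557 bp in fraction 4, 522 bp in fraction 5 and 535 bp in fraction 6, where the Bg3 origins themselves had a median of 426.5 bp. The region from short strands was wider than the one from long strands at 55 sites and narrower at 31. The long strands therefore did not come with wider regions at these sites.

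The nearest S2 pooled origin was a median of 4898 bp away from a fraction-only origin (4028 to 5523), against 5940 bp for origins in no S2 list (5573 to 6211). The rule sets both above 0. Within 1 kb of an S2 pooled origin lay 86 of the 560 (15.4%, 12.5 to 18.6), against 291 of the 2526 in no S2 list (11.5%, 10.3 to 12.8), where the share over both together was 12.2%. The intervals of these shares touch. At the other end, 146 fraction-only origins (26.1%) lay more than 10 kb from any S2 pooled origin, and 18 of those were held by all 3 fractions.

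A small group owed its place to fraction regions that reached sideways. At 32 of the 560 (5.71%, 3.94 to 7.97), a fraction region that touched the Bg3 origin also overlapped an S2 pooled origin next to it. For 27 of them every holding region did so. These 27 were narrow, with a median of 233 bp, and lay a median of 168 bp from the S2 pooled origin. The other 533 (95.2%) were held by at least 1 fraction region that overlapped no S2 pooled origin, and their median distance was 5326 bp. Thus nearly all of the group rests on fraction regions with no S2 pooled counterpart of their own. Sharing of regions was rare: 14 fraction-only origins shared a fraction region with another.

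**Figure D2:**
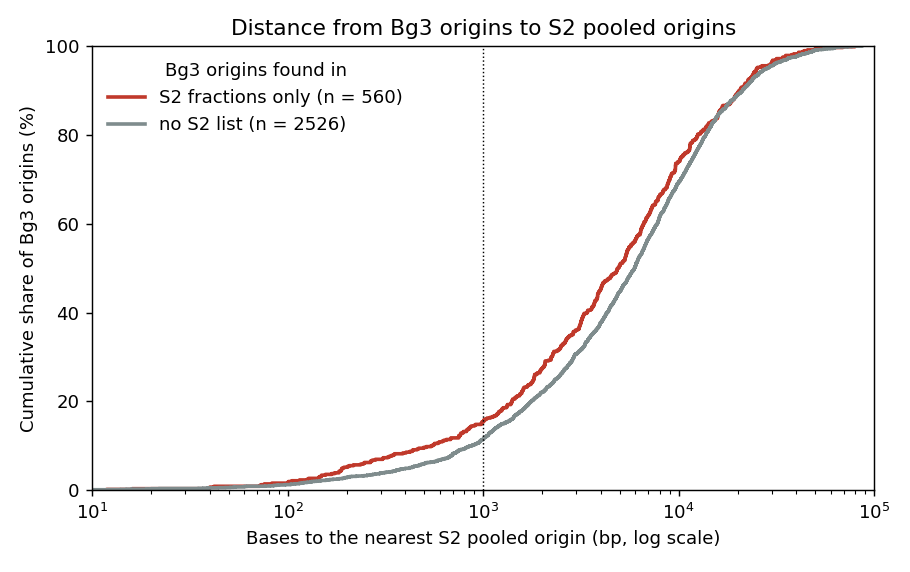
Cumulative share of Bg3 origins (y axis, percent) by the bases between each and the nearest S2 pooled origin (x axis, log scale), for the 560 fraction-only origins (red) and the 2526 in no S2 list (grey); the dotted line marks 1 kb. The red curve lies above the grey one at the dotted line (15.4% against 11.5%) and at 10 kb (73.9% against 69.3%).

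The cases nearest to the limits show how the rule draws its line. Closest to an S2 pooled origin were the fraction-only origins on 3R at 25479975 to 25480317 (12 bp away), 3R at 7026384 to 7026577 (16 bp) and 2R at 10369829 to 10370045 (39 bp), all held by the 3 fractions. In at least 2 of the fractions the region at each of them also overlapped an S2 pooled origin. Just outside were origins on 2L at 1605323 to 1605717, 3R at 22320205 to 22320402 and 3R at 21075902 to 21077084, which overlapped an S2 pooled region by 5, 13 and 14 bp. The smallest overlaps with a fraction were 3 bp on 2R at 13373584 to 13374089, 15 bp on 2L at 10390329 to 10390843 and 47 bp on 3R at 21719409 to 21719802. Each of these was held by 1 fraction, and the region at the first of them also overlapped an S2 pooled origin. Origins in no S2 list lay as near as 1 bp (2R at 15999698 to 16000339), 7 bp (2L at 15158417 to 15158601) and 10 bp (2L at 13405702 to 13406649) from a fraction region. At the width limit, the widest fraction-only origin had 3715 bp, and the narrowest 2 left out that met the other conditions had 4036 and 4069 bp.

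With an overlap of 1 bp, fraction-only origins were wider than the Bg3 origins in no S2 list and narrower than those also in the S2 pooled list. Their median width was 464 bp (421 to 515), against 364 bp (353 to 374) in no S2 list and 527 bp (501 to 549) in the S2 pooled list and a fraction. It fell to 377 bp when 1 fraction region had to cover 50% of the Bg3 origin, so the contrast with the 364 bp depends on the overlap asked for. Over 1 kb wide were 105 of them (18.75%), where the share over all Bg3 origins within the limits was 12.23%. This share was 6.93% for origins in no S2 list and 20.03% for those in the S2 pooled list and a fraction. Width enters the rule through the overlap, since a wider region meets more regions by its size alone. A fraction held 13.1% of the origins of up to 200 bp that the S2 pooled list lacked (10.4 to 16.3), and 37.5% of those over 1000 bp (31.8 to 43.5). For origins that the S2 pooled list contained, the same shares were 59.5% and 82.2%. The part of width in the other values was examined only through the width classes below.

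In strength the fraction-only origins were close to the Bg3 origins that no S2 list held. Their median was 2201 reads per kb (2143 to 2248), against 2181 (2162 to 2202) for origins in no S2 list, a ratio of 1.01. Origins in the S2 pooled list alone had 2192 (2166 to 2224). Origins in both the S2 pooled list and a fraction stood above all of these at 2366 (2340 to 2390), so the fraction-only median was 0.930 times theirs. The quartiles of fraction-only origins were 1904 and 2468 reads per kb, farther apart than any of these medians.

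The comparison turned with width. In origins of over 300 to 400 bp the fraction-only median was 2183 reads per kb (2070 to 2302), against 2003 (1975 to 2042) in no S2 list. In origins over 1000 bp it was 1910 (1784 to 2184), against 2520 (2418 to 2584) in no S2 list and 2710 (2617 to 2848) in the S2 pooled list and a fraction. Of the 6 width classes, the widest thus had the lowest fraction-only median, at 0.758 times the strength of equally wide origins in no S2 list. The arms differed in this, with few origins on each. On 2R the medians were 1866 reads per kb in 24 wide fraction-only origins and 2496 in 31 wide origins in no S2 list. The values were 2143 (41 origins) against 2598 (117) on 3L, 1799 (16) against 1942 (18) on 3R and 1933 (24) against 1838 (9) on 2L, where the order was the other way. Leaving out 3L, which held 117 of the 175 wide origins in no S2 list, brought the ratio over the remaining arms to 0.904.

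**Figure D3:**
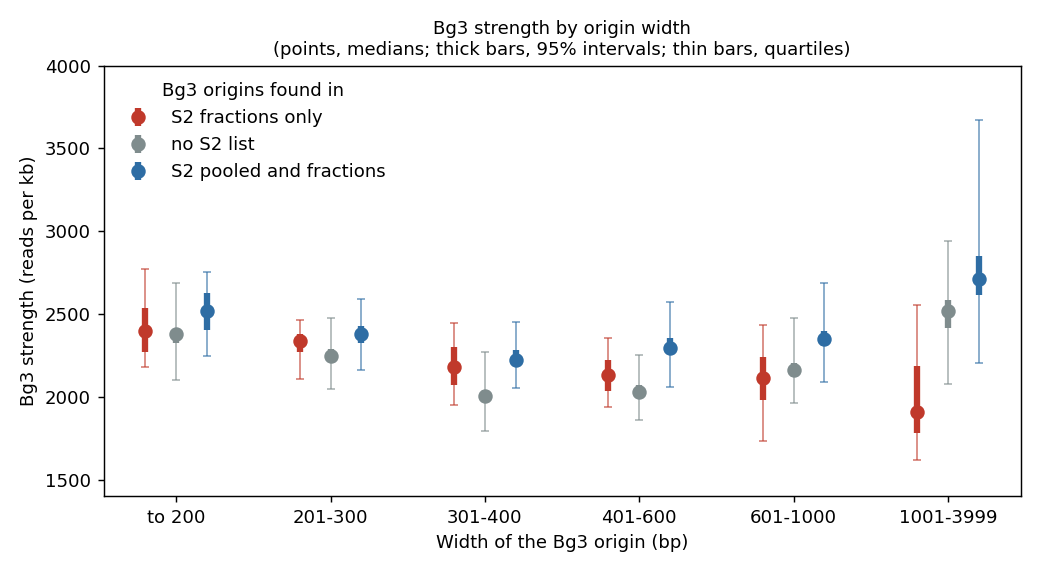
Median Bg3 strength (y axis, reads per kb, starting above 0) by width of the Bg3 origin (x axis, bp) for fraction-only origins (red), origins in no S2 list (grey) and origins in the S2 pooled list and a fraction (blue); thick bars are 95% intervals of the median and thin bars run between the quartiles. From the narrowest to the widest class the red medians go from 2398 to 1910 reads per kb, while in the widest class the grey and blue medians are 2520 and 2710.

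Each Bg3 value is a weighted mean of 2 whole numbers, which could be recovered for all 560 fraction-only origins. The files do not name them, so they are not taken for the 2 replicates here. Their medians over fraction-only origins were 945 and 1010, against 684 and 789 over origins in no S2 list. The lowest number at any fraction-only origin was 220, so both numbers were well above 0 throughout.

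At fraction-only origins the 2 numbers were seldom far apart. They differed by more than 1.5-fold at 4 of 560 (0.714%, 0.195 to 1.82), where the share over all Bg3 origins with a recovered pair was 4.46%. At origins in no S2 list the count was 123 of 2526 (4.87%, 4.06 to 5.78), and in 105 of these the second number was the higher. At origins in the S2 pooled list and a fraction it was 58 of 1559 (3.72%, 2.84 to 4.78), and in the S2 pooled list alone 56 of 755 (7.42%, 5.65 to 9.52). The low share was seen on every arm, with 1 of 127 on 2L, 1 of 149 on 2R, 0 of 132 on 3L, where a limit of 3 counts of the total allows a share of up to 2.27%, and 2 of 152 on 3R. Origins in no S2 list had 4.42%, 4.83%, 4.51% and 5.73% on these arms. The intervals of the 2 classes overlapped on each arm but 3L. In origins of over 300 to 1000 bp the fraction-only count was 1 of 299 (0.334%), against 70 of 1340 in no S2 list (5.22%). Up to 300 bp it was 2 of 156 (1.28%, 0.156 to 4.55) against 4.15% (3.01 to 5.57). Over 1000 bp it was 1 of 105 (0.952%, 0.0241 to 5.19) against 6.29% (3.18 to 11.0). In these last 2 width classes the intervals overlapped. Against origins in the S2 pooled list and a fraction, the intervals overlapped up to 300 bp. They did so too in those of over 300 to 1000 bp (0.00847 to 1.85 against 1.49 to 3.55). Over 1000 bp they did not (0.0241 to 5.19 against 5.27 to 11.6).

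The exceptions can be named, although they were picked after their values were seen. The origin on 2R at 7251629 to 7251883 had 708 and 353, the only one of the 4 with the first number higher. The others had 15619 and 25733 (2L at 20279797 to 20282921), 413 and 655 (3R at 24460440 to 24460657) and 510 and 789 (3R at 26737830 to 26738182). Balance went along with width too: the median log2 ratio of the first over the second number was 0.08 in fraction-only origins of up to 200 bp and -0.18 in those over 1000 bp.

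**Figure D4:**
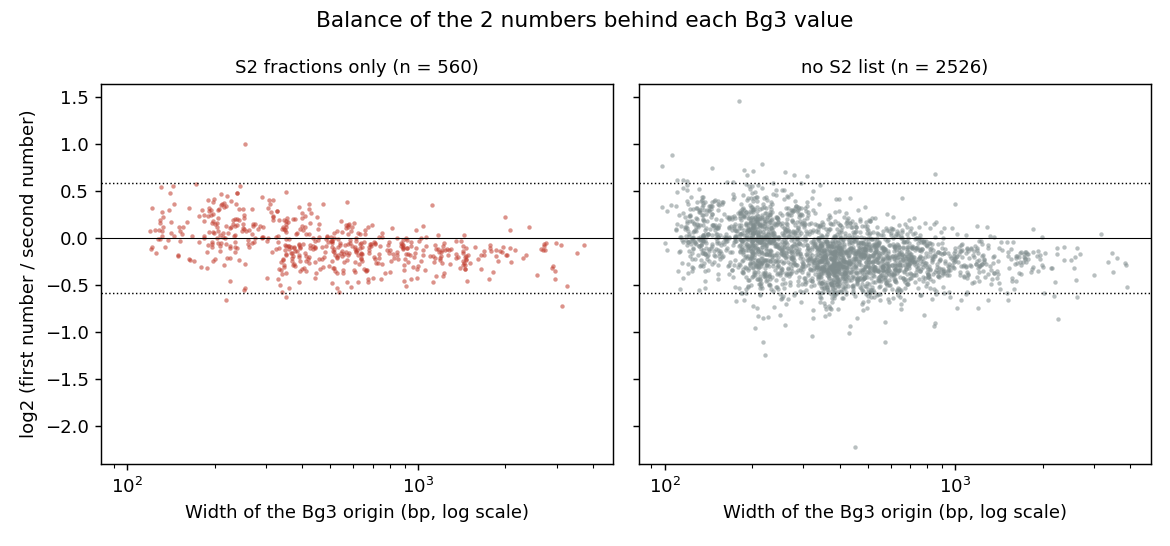
Log2 ratio of the 2 numbers behind each Bg3 value (y axis) by origin width (x axis, bp, log scale), for the 560 fraction-only origins (left) and the 2526 in no S2 list (right); each point is an origin, and dotted lines mark a 1.5-fold difference in either direction. Outside the dotted lines lie 4 points on the left and 123 on the right, and both clouds go down with width.

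The share of strong origins in the group, set against the Bg3 list within the limits, depended on the cutoff. In the top 10% by strength were 44 fraction-only origins (7.86%), where the share over all was 10.0%. It was 7.76% for origins in no S2 list and 15.5% for those in the S2 pooled list and a fraction. Over 2 times the median strength of all Bg3 origins within the limits were 9 fraction-only origins (1.61%), where the share over all was 1.31%, against 17 of those in no S2 list (0.673%) and 42 of those in the S2 pooled list and a fraction (2.69%). The strongest lay on 2R at 2363744 to 2364269, a 526 bp origin with 8559 reads per kb, for which the 2 recovered numbers were 3634 and 5280. Regions of 549, 500 and 515 bp in fractions 4, 5 and 6 covered nearly all of it, and the nearest S2 pooled origin began 1143 bp on. All 3 size classes of S2 strands thus marked this place, 3.83 times the median Bg3 strength.

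Of the strongest 10, a set of 3 lay on 2L, at 20208730 to 20208990 (8294 reads per kb), 20279797 to 20282921 (6705) and 20152481 to 20152833 (6164), all in the 3 fractions. They were 105, 9465 and 788 bp from an S2 pooled origin. On 2R at 15649983 to 15652403 an origin of 2421 bp reached 8214 reads per kb and was held by fraction 5 alone, in a region of 2431 bp that matched both edges within 5 bp. The nearest S2 pooled origin, 2263 bp wide, began 183 bp away. In this case a region of nearly the same outline was present in the middle-sized strands and in neither of the other fractions.

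The other 6 of the strongest 10 were within the first 2.5 Mb of 2R or 3R, the centromere side of those arms. These were on 2R at 163843 to 164517 (5970 reads per kb, fraction 6), 165009 to 166449 (5837, fraction 5), 2191939 to 2192473 (4771, fraction 4) and 567480 to 570121 (4045, fraction 4). The others were the strongest origin of all, named above, and 3R at 390832 to 391382 (5572, fractions 5 and 6). Of these 6, the origin at 2191939 was held through a region that also overlapped an S2 pooled origin. The neighbours at 163843 and 165009 were held by different fractions, in regions of only 200 and 192 bp. The first 2.5 Mb of these arms held 53 of all 560 (9.46%), against 182 of 2526 in no S2 list (7.21%).

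Origins held by all 3 fractions yet far from any S2 pooled origin included several on 3L. The farthest, on 3L at 18501132 to 18502647, lay 79620 bp from the nearest S2 pooled origin. Its strength was 1580 reads per kb, and fraction regions of 1461, 1357 and 2641 bp held it in fractions 4, 5 and 6. The next, on 3L at 18512555 to 18513192, was 69075 bp away with 1416 reads per kb, and its 3 fraction regions of 391, 355 and 268 bp lay within the Bg3 origin. Together these mark a stretch of 3L in which the 3 fractions and Bg3 cells had origins and pooled S2 had none.

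A further 2 far origins on 3L were at 626153 to 627002 (31572 bp away, 3069 reads per kb) and 5996302 to 5996793 (22557 bp, 1258 reads per kb). On 3R the origin at 25749451 to 25750680 was 20928 bp away and had 2943 reads per kb. In strength these 5 ranged from the 36th to the 557th of the 560. Both strong and weak sites were thus among the origins in all 3 fractions that lay farthest from pooled S2 origins. Over the whole group, median strength was 2301 reads per kb within 1 kb of an S2 pooled origin and 2107 beyond 10 kb. Median widths there were 330.5 and 579.5 bp, and no comparison at equal width was made.

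The 3 widest fraction-only origins were held in part only. The widest, 3715 bp on 2L at 13406662 to 13410376, had 2 fraction 4 regions of 727 and 646 bp and a fraction 6 region of 346 bp inside it or at its edge. On 3R at 18706976 to 18710502 an origin of 3527 bp had its largest overlap, 837 bp, with fraction 4. On 3L at 1795230 to 1798477 one of 3248 bp shared 530 bp with fraction 5. Their strengths were 1623, 1555 and 3022 reads per kb.

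The arms carried similar numbers, with 127 on 2L, 149 on 2R, 132 on 3L and 152 on 3R. Relative to the Bg3 origins that the S2 pooled list lacked, 3L had the fewest. There a fraction held 14.2% of 930 (12.0 to 16.6), against 21.1% of 602 on 2L (17.9 to 24.6), 18.8% of 791 on 2R (16.2 to 21.7) and 19.9% of 763 on 3R (17.1 to 22.9). The fraction lists were also shortest on 3L, with 2065 regions in all within the limits, against 2744 on 2L, 2926 on 2R and 3283 on 3R, and their part in this order was not tested. Fraction-only origins of 3L were the widest, with a median of 705 bp, and those of 3R the narrowest, at 354.5 bp. All 3 fractions held 23 of those on 3L (17.4%) and 17 of those on 3R (11.2%), while on 2R they held 34 (22.8%) and on 2L 25 (19.7%).

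Along the arms, in windows of 5 Mb, the share of such origins held by a fraction ran from 6.38% (3L from 20 Mb to the limit, 6 of 94) to 29.0% (2L from 20 Mb to the limit, 9 of 31). Inside 3L the window from 15 to 20 Mb stood at 21.1% (15.3 to 27.9), and the one from 0 to 5 Mb at 14.0% (10.6 to 18.1), with 51 fraction-only origins among 363. In the order of Bg3 origins within the limits, 390 fraction-only origins had no fraction-only neighbour on either side. A further 64 runs held 2, 13 runs held 3 or more, and the longest held 5. Fraction-only origins were 10.4% of the Bg3 origins within the limits. How many would stand alone by that share was not worked out, so these counts do not show scatter or clustering. A Bg3 origin of any class lay within 5 kb of 335 of them (59.8%), against 56.4% of the origins in no S2 list.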

How the data were processed

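Nascent strands from Bg3 and S2 cells had been sequenced, and 5 lists of origins were deposited for 9 samples. The submitters' processing notes name build dm3, the peak caller MACS 1.4.1, Bowtie2 2.2.0 and SAMtools 0.1.19. Thresholds, filters and the merging of replicates were not stated in the sources used here. Strength was deposited as a signal, reads per kb of origin: times width it gave whole reads (within 0.001) at 100% of S2 origins, and a weighted mean of 2 whole numbers in the Bg3 list (weights 0.473 and 0.527, found from the values). The recovery was tested on simulated data. Listed origins held 31.6 M reads in Bg3 and 42.1 M in S2, while total library depth is unknown and the fraction lists hold positions only. The deposited positions and widths are printed as deposited, and a start may be off by 1 base because the smallest start is 0 while widths count both ends.

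An overlap of 1 bp counted as a shared origin. Distances count the bases between regions. The members, the classes and the lists of named origins were chosen with earlier results of these data known. Named were the 10 strongest, the 5 farthest from S2 pooled origins in all 3 fractions, the 3 widest, the 3 nearest to an S2 pooled origin, the 3 with the smallest overlap and the nearest cases outside each limit. No test was run, since each list is a single pooled set. Gene names and sequences are not used here, as no sequence or annotation of build dm3 was used. Python 3.11.15, pandas 2.3.3 and scipy 1.17.1 were used.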

Additional observations from a re-analysis of the deposited data

How the results depend on the processing

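No paired analysis was possible because the lists pool the replicates and carry no column for either. The number of fraction-only origins (560) stayed within 1.5 times of itself in 12 of 13 alternatives, between 408 without 3R and 664, and fell to 283 when at least 2 fractions were required, which by construction keeps a part of them. The strength ratio to origins in no S2 list (1.01) lay between 0.982 and 1.03 in all 14 alternatives. Of these only the value without arm 3R, 0.982, left the interval around the reported one, so no direction is given for it. The share in all 3 fractions (17.7%) was 35.0% with at least 2 fractions required and 21.8% when up to 50% coverage by an S2 pooled region was allowed. The median distance to S2 pooled origins (4898 bp) was 5639 bp when S2 pooled origins had to be over 500 bp away, 3565 bp when up to 50% coverage was allowed, and 8110 bp as a mean. The cause of each shift beyond the rule's own construction was not tested. Leaving out the first 2.5 Mb of 2R and 3R, or the 27 origins held only through regions that reach an S2 pooled origin, both chosen after seeing the data, moved none of these 4 values out of its interval or by over 1.5 times. The median width (464 bp) stayed within its interval in only 7 of 12 alternatives. It ranged from 377 to 525.5 bp over those that keep the median. The 377 bp came with 50% of the Bg3 origin covered by 1 fraction region. Depth limits what the absence from a list can show: a weak S2 origin below the authors' threshold and an absent one cannot be told apart.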

Other observations

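The same overlaps were counted outside the width and place limits. On the X, 82 of the 439 Bg3 origins that the S2 pooled list lacked were in a fraction (18.7%, 15.1 to 22.6), against 18.1% within the limits. At the centromere ends of 2L and 3L it was 84 of 261 (32.2%, 26.6 to 38.2), and on heterochromatic scaffolds 251 of 825 (30.4%, 27.3 to 33.7), 97 of them in all 3 fractions. On chromosome 4 it was 2 of 75 (2.67%, 0.325 to 9.30). Of 34 origins of 4 kb or more on the arms that the S2 pooled list lacked, 22 were in a fraction (64.7%, 46.5 to 80.3). The origins in fractions only had a median width of 644 bp on the X, 815 bp at the centromere ends, 798 bp on the scaffolds and 1221 bp for the 2 on chromosome 4, against 464 bp within the limits, and no comparison at equal width was made.

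The S2 pooled origins nearest to fraction-only origins had a median S2 strength of 1530 reads per kb, against 1542 for those nearest to Bg3 origins in no S2 list.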
